A study of Mus musculus with 180 samples.

Results

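The 52 genes described here encode the DNA replication machinery: the proteins that mark, license and fire replication origins, unwind and copy DNA at the fork, and supply nucleotides for it. They were chosen by what their products do, with earlier results of these data known. All 52 were among the 14825 genes of the table, and all 52 passed the filter on low values, which kept 10856 genes. They were placed in 13 complexes or steps and followed in single cells of 4 mouse blood populations.

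The first population, CD11b+CD48+SK (n = 47, SK cells from here on, labelled CD48+Mac1+SK, Mac1 being another name of CD11b), was donor-derived bone marrow. These cells arose in lethally irradiated primary recipients of MPP that carried Mx1cre and a loxP-stop-loxP Hoxb5-EGFP cassette at the Rosa locus, with pIpC given to switch it on, and were sorted at week 8 after transplantation. Mx1cre responds to interferon in many cell types, so it does not limit the cassette to 1 kind of blood cell, and the sort took donor-derived cells because irradiated recipients can keep cells of their own. FL HSC (n = 56) were haematopoietic stem cells of fetal liver from Hoxb5LSL/+ mice at Day14.5, gated on CD150 and Mac1 among Lin- Sca1+ c-Kit+ cells, though the tissue field of their labels reads bone marrow. BM HSC (n = 36) and WT-MPP (n = 41, multipotent progenitors) came from bone marrow of 8-week-old Hoxb5LSL/+ mice, whose cassette stays silent without Cre. All mice were of the C57BL/6 strain. The labels name no animal for a cell. A population was therefore treated as a single sample, differences between populations are given without a test, and the intervals below cover the counting of cells only.

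Replication is prepared in G1, when the origin recognition complex, Cdc6 and Cdt1 load the Mcm2-7 helicase onto origins. Geminin then blocks Cdt1, the kinase Cdc7 with its activator Dbf4 and the factors Cdc45 and GINS turn Mcm2-7 into a working helicase, and polymerases alpha, delta and epsilon copy the strands with the Pcna clamp, its loader Rfc and the single-strand binding protein RPA. Adult bone marrow HSC are known to be mostly out of the cycle, whereas fetal liver HSC divide often, and many of these genes are known targets of E2F factors.

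Levels are given in TPM, an abundance scaled by transcript length and by the total of the cell, so that different genes can be set side by side, or as the mean over cells of log2(TPM + 1). A gene counted as detected in a cell at a TPM of 1 or more. A difference is that of 2 population means of log2(TPM + 1), and differences of 1 or more were counted. TPM keeps no read counts, which leaves the depth of a cell unknown, and the genes detected in it stand in for it. Their median was 4514 in the SK cells, 5206.5 in FL HSC, 4441.5 in BM HSC and 3844 in WT-MPP. Hoxb5, the gene of the cassette, was found in 91.5% of the SK cells, 57.1% of FL HSC, 22.2% of BM HSC and 17.1% of WT-MPP. Cd48 was detected in every SK cell and 17.1% of WT-MPP, and Itgam, which encodes CD11b, in 36.2% and 4.88%. Slamf1, which encodes CD150, was detected in 63.9% of BM HSC, 55.4% of FL HSC and 7.32% of WT-MPP. Kit was detected in 70.2% of SK cells and 85.4% of WT-MPP. The mRNA of Itgam was thus below detection in most cells sorted for its protein.

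Over all cells, most replication genes were higher in the SK cells than in both adult populations and near their level in FL HSC. Against WT-MPP, 41 of the 52 were higher by 1 or more (78.8%), beside 19% of all kept genes, and none was lower by 1 or more, beside 5.01%. The median difference of the 52 genes was 2.28, against 0.21 for all kept genes. Against BM HSC, 32 were higher (61.5%), beside 13.4% of all kept genes, with a median of 1.34 against 0.00. Pole alone was lower than in BM HSC by 1 or more, beside 11.8% of all kept genes. Against FL HSC, none was higher by 1 or more, beside 4.02%, and 9 were lower (17.3%), beside 20.9%. Under median ratio scaling of the cells, 2 were higher and 8 lower than in FL HSC, with no share of all kept genes given for that scaling. Without it, the share lower than in FL HSC was near that of all kept genes, and so was the median, -0.30 against -0.32.

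Over all cells FL HSC also stood above the adult populations, though not above BM HSC in the selected range of detected genes described below. They were higher than WT-MPP by 1 or more in 43 of the 52 genes, beside 33.9% of all kept genes, and higher than BM HSC in 37, beside 25.6%. BM HSC were higher than WT-MPP by 1 or more in 21, beside 14.49%, and lower in none, beside 2.67%. The median differences were 2.38, 1.70 and 0.86. These comparisons share populations and are not separate evidence.

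**Figure D1:**
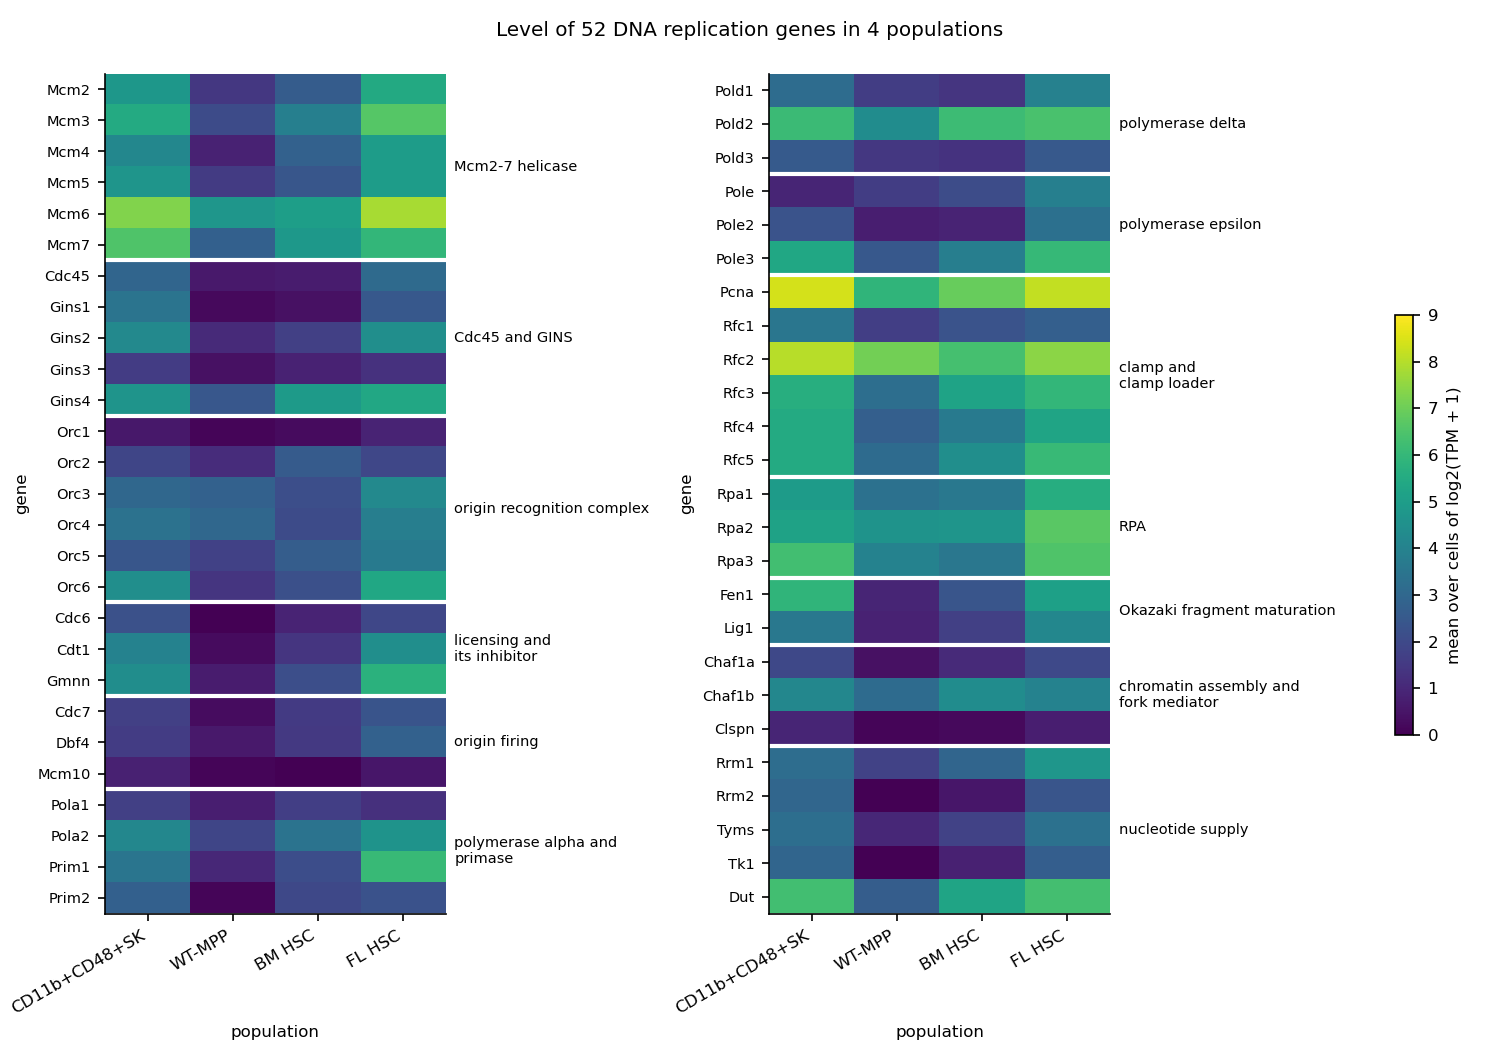
Mean over cells of log2(TPM + 1), as colour, of each of the 52 genes (grouped by complex or step) in the 4 populations. SK cells and FL HSC are higher than BM HSC and WT-MPP in most genes, Pcna reaches 8.42 in the SK cells, and Pole, at 0.95, is lower there than in any other population.

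The number of genes detected per cell moved with these differences. All 4 populations had cells with 3974 to 4751 detected genes, 24 of the SK cells and 14 FL HSC, 14 BM HSC and 17 WT-MPP. Among these, 29 of the 52 genes were higher by 1 or more in the SK cells than in WT-MPP, beside 11% of all kept genes, and 2, Pole and Orc3, were lower, beside 15.8%. The 12 genes that no longer differed by 1 were Mcm6, Gins3, Cdc7, Dbf4, Pold1, Pold2, Pold3, Pole2, Pcna, Chaf1b, Rrm1 and Tyms. Against BM HSC, 14 were higher, beside 14.2%, and 7 were lower, beside 17.7%. Against FL HSC, 17 were higher, beside 11%, and 3 were lower (Pole, Prim1 and Pole2), beside 19.2%, with a median of 0.54. FL HSC were higher than WT-MPP in 19, beside 18.5%, and lower in 4, beside 14.8%, and they were higher than BM HSC in 11, beside 19.5%, and lower in 14, beside 15.7%, with medians of 0.35 and 0.04. BM HSC were higher than WT-MPP in 21, beside 13.2%, and lower in 4, beside 15.1%, with a median of 0.67. In the SK cells the difference changed sign for 8 of the 52 genes against WT-MPP, 9 against BM HSC and 22 against FL HSC. It also changed sign for 18 and 22 in FL HSC against WT-MPP and BM HSC, and for 10 in BM HSC against WT-MPP. At like numbers of detected genes the SK cells were thus still above WT-MPP, by a median of 1.07, while the excess over BM HSC was smaller and the direction against FL HSC turned. The range left out every FL HSC and BM HSC with at least 40 of the 52 genes detected, but kept some SK cells with as many. Its FL HSC had at most 30 of them and its BM HSC at most 39. Replication genes detected went with all genes detected, so the range selects on both. Its values cannot show what equal depth would give. The part of the number of detected genes in the differences was not tested.

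All 6 genes of the Mcm2-7 helicase, the ring that unwinds DNA ahead of the fork, were higher in the SK cells than in WT-MPP, by 2.57 to 3.74, and than in BM HSC, by 1.39 to 2.27. The median of Mcm2 was 90.9 TPM in the SK cells (0 to 412), 104 in FL HSC (0 to 444), 0.460 in BM HSC (0 to 510.1) and 0 in WT-MPP (0 to 353), the range over cells standing in brackets. For Mcm3 it was 131 (0 to 646), 173 (0 to 756), 6.72 (0 to 336) and 0.319 TPM (0 to 379.97) in the same order of populations. For Mcm4 it was 24.04 (0 to 349.9), 66.4 (0 to 519), 0.834 (0 to 287) and 0 TPM (0 to 234). The cells of the 4 populations overlap in all 3 genes, but the typical WT-MPP cell was at or near 0.

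For Mcm5 the medians were 69.7 (0 to 658), 78.3 (0 to 686), 0.618 (0 to 555) and 0.154 TPM (0 to 307). Those of Mcm7 were 181 (0.503 to 869.6), 163 (0 to 796), 113 (0 to 754) and 0.736 TPM (0 to 575). Mcm6 stood apart, since the typical cell of every population had it. Its median was 276 TPM in the SK cells (0 to 931), 268 in FL HSC (0.643 to 1072), 84.2 in BM HSC (0 to 1469.9) and 87.1 in WT-MPP (0 to 516), and it was detected in 82.9% of WT-MPP, beside 12.2% for Mcm4. Mcm6 had the smallest difference from WT-MPP of the 6, and within the common range of detected genes it was 0.31. BM HSC and WT-MPP differed in Mcm6 by 0.30, or -2.67 in that range, beside 2.04 in Mcm7. Against FL HSC, Mcm7 was 0.57 higher in the SK cells, and the other 5 ran from -1.14 for Mcm3 to -0.28 for Mcm5, of which Mcm4, Mcm5 and Mcm6 turned to 0.19, 1.20 and 0.37 in the common range.

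**Figure D2:**
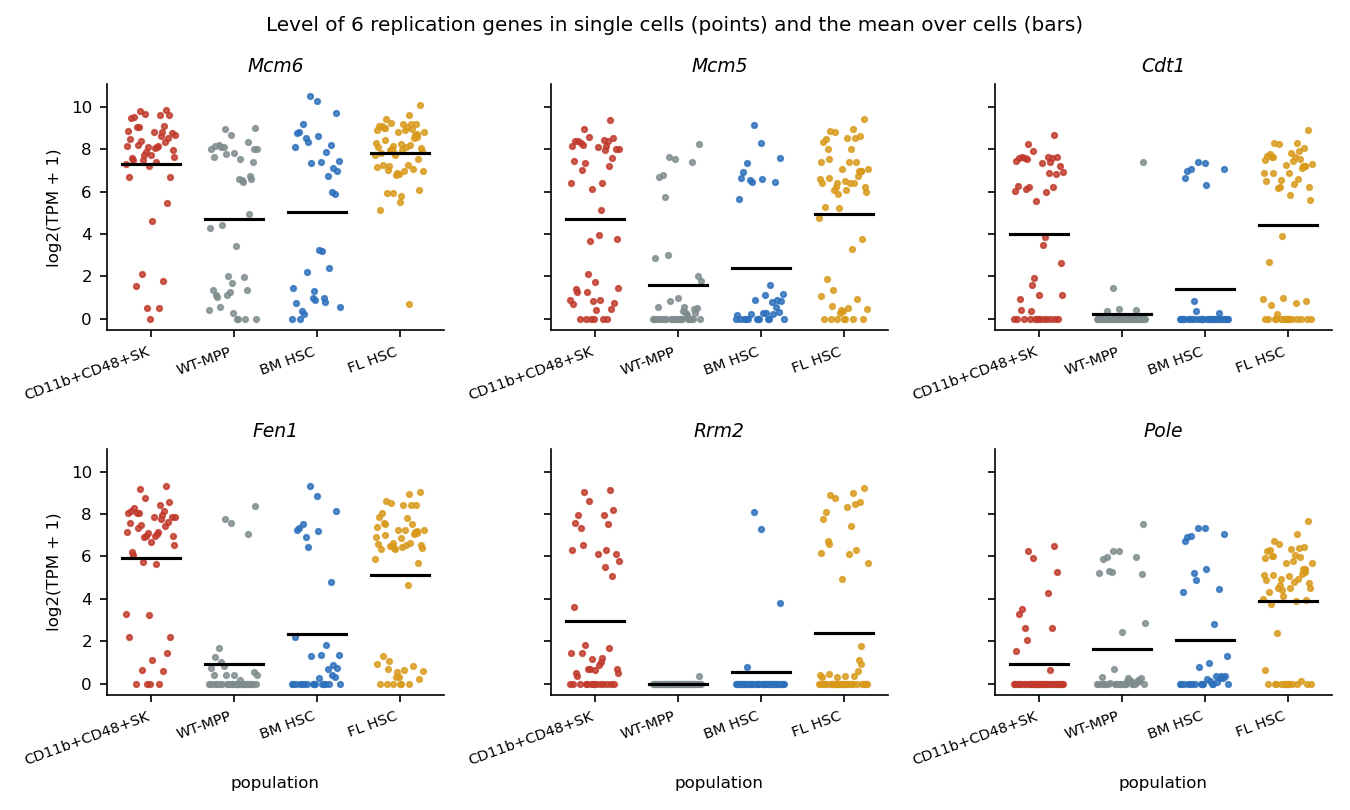
Level of 6 replication genes as log2(TPM + 1) in single cells (points) of the 4 populations, with the mean over cells (bars). Mcm6 is present in most cells of every population, Rrm2 is near 0 in every WT-MPP cell, and Pole has its highest mean, 3.88, in FL HSC and its lowest, 0.95, in the SK cells.

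Promoters were searched because E2F factors are known to act on the helicase genes, all 6 of which were higher in SK cells than in WT-MPP. The 4 printed are those with the most E2F matches among the Mcm2-7, Cdc45 and GINS genes, so they are not typical windows. RefSeq windows (GRCm38.p6) from 250 bases before to 50 after the start were at hand for 44 of the 52 genes, and none for Mcm4, Gins1, Gins2, Gins4, Gmnn, Prim2, Pole and Rfc2. The letters TTTCCCGC, TTTGGCGC, TTTCGCGC and TTTGCCGC, which E2F factors are known to bind, were searched on both strands, and matches may overlap. Of the 44 windows, 16 held a match (36.4%), beside 4.99% of the 8061 kept genes with a window and 2.605% of all 27025 genes with one. CCAAT, which NF-Y is known to bind, was in 25 of the 44 (56.8%), beside 43.5% of those kept genes and 41.1% of all. Of the 5 Mcm2-7 genes with a window, 4 held an E2F match. Mcm2 and Cdc45 held none, though they differed between SK cells and WT-MPP by 3.31 and 2.33. The lines give, 5′ to 3′ on the strand of the gene with the matches in capitals, 200 bases before the start of Mcm6 (chr1:128359706-128359905, minus strand) and Mcm5 (chr8:75109309-75109508, plus strand), and 30 bases at a match of Mcm3 (chr1:20820267-20820296, minus strand, after its start) and Mcm7 (chr5:138172030-138172059, minus strand, in an annotated exon of Mcm7).
Mcm6: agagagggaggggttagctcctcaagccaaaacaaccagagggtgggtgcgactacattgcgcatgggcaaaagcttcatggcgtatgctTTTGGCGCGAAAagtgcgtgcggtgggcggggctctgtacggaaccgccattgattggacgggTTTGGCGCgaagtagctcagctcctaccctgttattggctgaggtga
Mcm5: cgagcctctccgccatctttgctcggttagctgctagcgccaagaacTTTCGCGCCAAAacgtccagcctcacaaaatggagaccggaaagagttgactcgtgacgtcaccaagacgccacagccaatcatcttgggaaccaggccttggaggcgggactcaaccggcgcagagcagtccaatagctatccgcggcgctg
Mcm3: gtgGCGGGAAAacttgggaagtTTTGGCGC
Mcm7: aatttcgaaccGCGGGAAAcagggtgtcca

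The window of Mcm6 held 3 matches, and those of Mcm5, Mcm3 and Mcm7 held 2 each, of which 1 is printed for Mcm7. Outside the helicase, matches stood in the windows of Gins3, Orc1, Orc3, Cdc6, Cdt1, Pola1, Pold1, Pold3, Pole2, Rfc3, Lig1 and Clspn. The 16 genes with a match had a median difference between SK cells and WT-MPP of 1.89 (0.20 to 3.75), and the 28 without had 2.28 (0.38 to 4.96), so a match did not go with a larger difference. A match of letters describes the window and shows no binding.

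All 6 Mcm2-7 genes were detected together in 26 of 47 SK cells, which is 55.3% (40.1 to 69.8%), the bracket being the 95% exact Clopper-Pearson interval. The share was 53.6% (39.7 to 67.01%) in FL HSC, 19.4% (8.19 to 36.02%) in BM HSC and 4.88% (0.596 to 16.5%) in WT-MPP. The intervals of SK cells and FL HSC lie above those of both adult populations. They cover the counting of cells within a single sample each, so a gap between them is no test of the populations. Within the common range of detected genes it was 45.8% in the SK cells, 14.3% in both FL HSC and BM HSC, and 11.8% in WT-MPP, so FL HSC were no longer above BM HSC.

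Cdc45 and the 4 GINS genes, whose products bind Mcm2-7 to form the working helicase, were higher in the SK cells than in WT-MPP by 1.18 to 3.25. Gins1 was detected in 51.1% of the SK cells, 37.5% of FL HSC, 5.56% of BM HSC and 4.88% of WT-MPP, with median TPM of 1.09 (0 to 528), 0 (0 to 304), 0 (0 to 168) and 0 TPM (0 to 174). Its difference over FL HSC, 0.99, was the largest of the 52 genes. Cdc45 was detected in 48.9%, 44.6%, 13.9% and 7.32% in the same order, with medians of 0.792 (0 to 208), 0.240 (0 to 581), 0 (0 to 156) and 0 TPM (0 to 379.7). Gins2 had medians of 59.4 (0 to 804), 81.4 (0 to 649), 0 (0 to 555) and 0 TPM (0 to 1046). Both Gins1 and Cdc45 were thus rare in the adult populations, though single cells there reached levels like those of SK cells.

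Gins3 was the rarest of the 5 in SK cells and FL HSC, detected in 31.9% of the SK cells, 21.4% of FL HSC, 13.9% of BM HSC and 7.32% of WT-MPP, with medians of 0 (0 to 165), 0 (0 to 199), 0 (0 to 191) and 0 TPM (0 to 488). Gins4 did not follow the others. It was at hand in 76.6%, 75%, 75% and 43.9% of the 4 populations, with medians of 107 (0 to 440.5), 100.1 (0 to 553), 88.6 (0 to 492) and 0.5001 TPM (0 to 500.4). SK cells and BM HSC differed in Gins4 by -0.22, while they differed in Gins1 by 3.07, in Gins2 by 2.55 and in Cdc45 by 2.23. In the common range of detected genes these differences were -0.46, 2.13, 0.76 and 1.49. All 4 GINS genes were detected together in 19.1% (9.15 to 33.3%) of SK cells and 14.3% (6.38 to 26.2%) of FL HSC. This was seen in 0 of 36 BM HSC, which allows a share of up to 8.33%, and in 0 of 41 WT-MPP, which allows up to 7.32%. These limits for a share of 0 are 3 cells of the population, and the exact intervals reach higher, to 9.74% and 8.60%.

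The origin recognition complex, which binds origins and is known to be present in cells that do not replicate, held small differences. The median over Orc1-6 between SK cells and WT-MPP was 0.56, the lowest of the 13 complexes, and -0.40 in the common range of detected genes, where Orc1 to Orc5 all stood below WT-MPP. Over all cells Orc6 alone was higher by 1 or more, by 3.07. The median of Orc6 was 77.3 TPM in the SK cells (0 to 653), 102 in FL HSC (0 to 543), 0.182 in BM HSC (0 to 636) and 0 in WT-MPP (0 to 475). The other 5 differed from WT-MPP by 0.20 to 0.72. Orc3 had medians of 8.44 (0 to 221), 35.7 (0 to 139), 0.243 (0 to 121) and 1.18 TPM (0 to 200.4). Those of Orc4 were 10.9 (0 to 171), 30.1 (0 to 277), 0.332 (0 to 184) and 1.08 TPM (0 to 537). In Orc4 and Orc3 BM HSC stood below WT-MPP, by differences of -0.98 and -0.62, and their mean was also lower in Rfc2, Rpa3, Pold1, Mcm10 and Pold3, by less than 1 in all 7 genes.

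Orc2 went the other way, with its highest mean log2(TPM + 1) in BM HSC, 2.60, beside 1.93 in FL HSC, 1.87 in the SK cells and 1.16 in WT-MPP. Its medians were 0.370 (0 to 127), 0.0579 (0 to 103), 0.497 (0 to 364) and 0.187 TPM (0 to 168). For Orc5 they were 0.470 (0 to 276), 20.8 (0 to 381), 0.501 (0 to 465) and 0.141 TPM (0 to 342). Orc1 was scarce everywhere, detected in 10.6% of the SK cells, 21.4% of FL HSC, 8.33% of BM HSC and 4.88% of WT-MPP, with medians of 0 (0 to 74.3), 0 (0 to 92.2), 0 (0 to 15.7) and 0 TPM (0 to 11.1). All of Orc1-6 were detected together in 1 SK cell and 6 FL HSC. Orc3 and Orc5 were 2 of the 9 genes lower than in FL HSC by 1 or more, at -1.23 and -1.27.

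**Figure D3:**
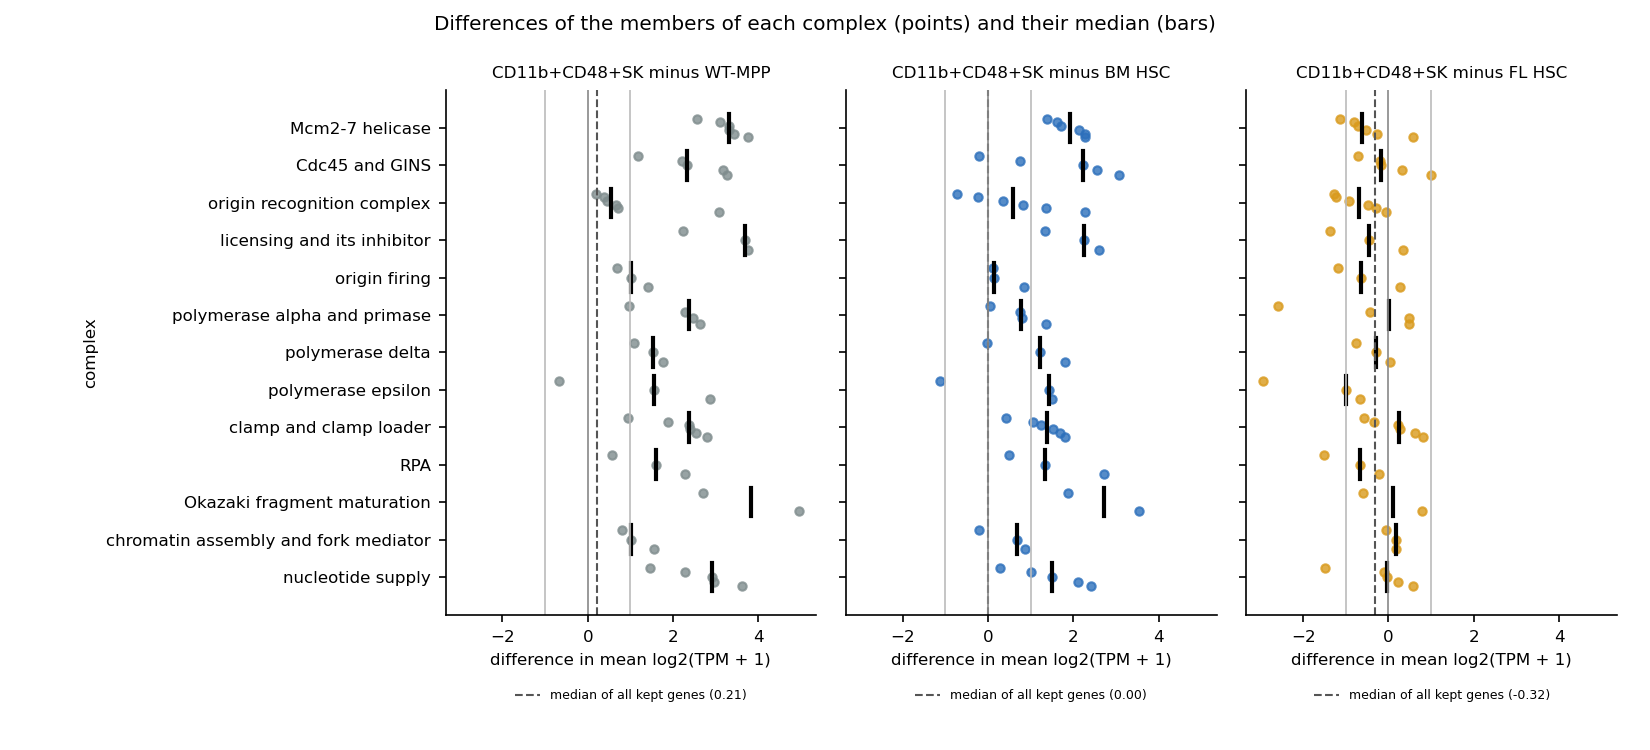
Difference in mean log2(TPM + 1) of each replication gene (points) between SK cells and WT-MPP, BM HSC or FL HSC, by complex or step, with the median of each (bars). Against WT-MPP the medians run from 0.56 for the origin recognition complex to 3.84 for Okazaki fragment maturation, and Pole lies below 0 in all 3 panels.

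The licensing genes were rare in WT-MPP. Cdc6, which helps to load Mcm2-7, reached a TPM of 1 in 0 of 41 WT-MPP, which allows a share of up to 7.32%. It was detected in 40.4% of the SK cells, 33.9% of FL HSC and 13.9% of BM HSC, and its medians were 0.134 (0 to 223), 0 (0 to 165), 0 (0 to 183) and 0 TPM (0 to 0.131). Cdt1, which loads the helicase with it, had medians of 45.6 (0 to 406), 77.3 (0 to 479), 0 (0 to 167) and 0 TPM (0 to 169). Gmnn, which encodes the Cdt1 inhibitor geminin, had 17.01 (0 to 689.7), 135 (0 to 975), 0 (0 to 686) and 0 TPM (0 to 427). Differences from WT-MPP were 3.75 for Cdt1, 3.70 for Gmnn and 2.23 for Cdc6, and those from BM HSC 2.60, 2.25 and 1.33. In the common range of detected genes they were 2.53, 3.35 and 1.75 from WT-MPP, and 0.45, 0.85 and 1.32 from BM HSC. Against FL HSC, Gmnn was at -1.37, Cdt1 at -0.45 (0.43 in the common range) and Cdc6 at 0.33.

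Cdt1 protein is known to be present before S phase and geminin during and after it, and their mRNA was counted in the same cell. The share of cells with both was 59.6% (44.3 to 73.6%) in the SK cells, 51.8% (38.03 to 65.3%) in FL HSC, 13.9% (4.67 to 29.5%) in BM HSC and 2.44% (0.0617 to 12.9%) in WT-MPP. Gmnn without Cdt1 was seen in 17.02% (7.65 to 30.8%) of SK cells and 32.1% (20.3 to 45.96%) of FL HSC, and Cdt1 without Gmnn in 6.38% (1.34 to 17.5%) and 10.7% (4.03 to 21.9%). Gmnn was in 90.3% of the 31 SK cells and 82.9% of the 35 FL HSC with Cdt1, beside 76.6% and 83.9% of all their cells, so in FL HSC cells with Cdt1 did not have Gmnn more often. Neither was detected in 85.4% of WT-MPP and 63.9% of BM HSC, but in 17.02% of SK cells and 5.36% of FL HSC.

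The firing genes were low. Cdc7, the origin-firing kinase, was detected in 34.04% of the SK cells, 37.5% of FL HSC, 25% of BM HSC and 2.44% of WT-MPP, with medians of 0 (0 to 258), 0.165 (0 to 423), 0 (0 to 216) and 0 TPM (0 to 197). Mcm10, a factor of helicase activation, was in 17.02% of SK cells, 12.5% of FL HSC, 0 of 36 BM HSC, which allows up to 8.33%, and 2.44% of WT-MPP, with medians of 0 (0 to 81.4), 0 (0 to 98.9), 0 (0 to 0.0865) and 0 TPM (0 to 48.1). From WT-MPP the SK cells differed by 1.41 in Cdc7, 1.01 in Dbf4 and 0.70 in Mcm10. From BM HSC they differed by 0.15 in Cdc7 and 0.12 in Dbf4, and from FL HSC by -1.19 in Dbf4. In the common range of detected genes Cdc7 turned to -1.25 against BM HSC, and Dbf4 to 0.53 against FL HSC.

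Polymerase alpha and primase lay down the primers. Prim2, the regulatory primase subunit, had the largest difference from WT-MPP of the 4 genes, 2.63, with medians of 0.636 (0 to 230.2), 0 (0 to 316), 0 (0 to 533) and 0 TPM (0 to 1.82). Pola1, the catalytic polymerase subunit, had the smallest, 0.97, with medians of 0 (0 to 258), 0 (0 to 36.95), 0 (0 to 185) and 0 TPM (0 to 270.2). Prim1, the catalytic primase subunit, separated the SK cells from FL HSC. Its median was 1.47 TPM in the SK cells (0 to 453), 133 in FL HSC (0 to 1055), 0.564 in BM HSC (0 to 618) and 0 in WT-MPP (0 to 884), and it was detected in 57.4%, 87.5%, 38.9% and 19.5% of the 4 populations. The difference between SK cells and FL HSC in Prim1 was -2.59, and -2.56 within the common range of detected genes.

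Pole, the catalytic subunit of the leading-strand polymerase epsilon, was the one gene of the 52 with a lower mean, over all cells, in the SK cells than in WT-MPP. Its median was 0 TPM in the SK cells (0 to 87.9), 26.2 in FL HSC (0 to 203), 0.245 in BM HSC (0 to 163) and 0.0848 in WT-MPP (0 to 183). Of the SK cells 11 held it (23.4%, 12.3 to 38.03%), beside 41 FL HSC (73.2%, 59.7 to 84.2%), 13 BM HSC (36.1%, 20.8 to 53.8%) and 12 WT-MPP (29.3%, 16.1 to 45.5%). The intervals of the 3 bone marrow populations overlap, and that of FL HSC lies above them, which covers the counting of cells only and is no test of the populations. The differences of SK cells were -2.94 to FL HSC, -1.13 to BM HSC and -0.68 to WT-MPP, and within the common range of detected genes -4.51, -1.21 and -1.18.

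The other genes of polymerase epsilon did not share this order. Pole3, a histone-fold subunit, had the largest difference from WT-MPP of the 3, 2.86, with medians of 125 (0 to 651), 137 (0 to 429), 42.99 (0 to 448) and 0.787 TPM (0 to 416). Pole2 differed by -0.99 from FL HSC, 1.43 from BM HSC and 1.55 from WT-MPP. Over the cells of a population, Pearson's r between Pole and the mean of the other 51 genes was 0.23 in the SK cells, -0.19 in FL HSC, -0.05 in BM HSC and 0.07 in WT-MPP. For Pole3 it was 0.48, 0.41, 0.34 and 0.36. Coefficients over the 47, 56, 36 and 41 cells are descriptions, since cells of a population share their source and differ in the number of genes detected.

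Polymerase delta copies the lagging strand. Pold2 had the largest difference from WT-MPP of its 3 genes, 1.77, with medians of 212 (0 to 763), 164 (0 to 727), 190.1 (0 to 594) and 7.46 TPM (0 to 749), and differed from BM HSC by -0.02. Pold3 had the smallest, 1.09, with medians of 0.645 (0 to 275), 0.510 (0 to 174), 0 (0 to 225) and 0 TPM (0 to 349). Neither kept its difference from WT-MPP under every choice. Within the common range of detected genes that of Pold2 was -0.01, and on the log2 of the mean TPM plus 1 that of Pold3 was -0.06.

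Pcna, the sliding clamp, had the highest mean log2(TPM + 1) of the 52 genes in SK cells, FL HSC and BM HSC, at 8.42, 8.19 and 6.90, and was at 5.88 in WT-MPP. Its median was 532 TPM in the SK cells (1.57 to 2053), 358 in FL HSC (0.766 to 3052), 266 in BM HSC (1.38 to 2266) and 245 in WT-MPP (0 to 880.1), and it was detected in every SK cell and BM HSC. Annotated pseudogenes named Pcna-ps1 and Pcna-ps2 could take or give some of its reads. Of the clamp loader, Rfc4 had the largest difference from WT-MPP, 2.79, with medians of 188 (0 to 942), 109 (0 to 665), 4.57 (0 to 929) and 0.844 TPM (0 to 518). Rfc2 had the smallest, 0.94, with medians of 416 (0 to 1337), 283 (0 to 1585), 182 (0 to 1427) and 362 TPM (0 to 981), and had the highest mean of the 52 in WT-MPP. Its difference from WT-MPP turned to -0.71 in the common range of detected genes. Rfc1, the largest loader subunit, had medians of 14.03 (0 to 252), 6.08 (0 to 98.4), 0.630 (0 to 123) and 0.200 TPM (0 to 222). Rfc1 and Rfc2 stood 0.81 and 0.62 above FL HSC.

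An exon of Lat2 overlaps Rfc2 on the opposite strand, and Lat2 was 6.23 higher in the SK cells than in WT-MPP. No strand setting is given in the sources used here, so reads of Rfc2 and Lat2 cannot be told apart where they overlap. Of the 52 genes, 15 share exon bases with a gene on the opposite strand, 11 of them with 13 partners in the table, whose differences between SK cells and WT-MPP ran from -1.75 (Eif4a2, beside Rfc4) to that of Lat2, with a median of 0.49. Tmem258, beside Fen1, was 1.001 higher.

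RPA coats single-stranded DNA. Rpa3 had the largest difference from WT-MPP of its 3 genes, 2.28, with medians of 181 (0 to 627), 142 (0 to 529), 5.68 (0 to 739) and 25.5 TPM (0 to 717), and one of the largest from BM HSC, 2.71. Rpa2 had the smallest, 0.58 (-0.21 in the common range), with medians of 133 (0 to 747), 185 (0 to 920.3), 97.9 (0 to 512) and 34.7 TPM (0 to 1096). Rpa2 was common in every population, detected in 80.9%, 87.5%, 66.7% and 78.05%. Its difference between SK cells and FL HSC, -1.51, became 0.62 within the common range of detected genes.

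Fen1, the nuclease that trims Okazaki fragments, had the largest difference of the 52 genes from WT-MPP, 4.96, and from BM HSC, 3.54. Its median was 136 TPM in the SK cells (0 to 635), 92.8 in FL HSC (0 to 530.03), 0.475 in BM HSC (0 to 628) and 0 in WT-MPP (0 to 329), and it was detected in 87.2%, 73.2%, 41.7% and 17.1%. Most SK cells and FL HSC thus had Fen1 and most adult cells did not. Lig1, the ligase that joins the trimmed fragments, had medians of 14.6 (0 to 259), 24.9 (0 to 447), 0 (0 to 518) and 0 TPM (0 to 197) and differed from WT-MPP by 2.71. Within the common range of detected genes Fen1 differed by 2.25 from FL HSC, 2.31 from BM HSC and 3.89 from WT-MPP.

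Chaf1a and Chaf1b encode subunits of the histone chaperone CAF-1, and Clspn the fork mediator claspin. Chaf1a had the largest difference from WT-MPP of the 3, 1.54, and was detected in 36.2% of the SK cells, 39.3% of FL HSC, 19.4% of BM HSC and 4.88% of WT-MPP, with medians of 0 (0 to 157), 0 (0 to 263), 0 (0 to 198) and 0 TPM (0 to 206). Clspn had the smallest, 0.80, with medians of 0 (0 to 50.01), 0 (0 to 65.2), 0 (0 to 22.5) and 0 TPM (0 to 21.98). Chaf1b differed by 1.01 from WT-MPP and -0.22 from BM HSC, with medians of 70.1 (0 to 537), 53.7 (0 to 444), 85.6 (0 to 522) and 1.21 TPM (0 to 559).

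Enzymes of nucleotide supply included the genes most restricted to some populations. Rrm2, the ribonucleotide reductase subunit known to be made in S phase, reached a TPM of 1 in 0 of 41 WT-MPP but in 53.2% of the SK cells, 33.9% of FL HSC and 8.33% of BM HSC, with medians of 1.22 (0 to 551), 0 (0 to 606), 0 (0 to 272) and 0 TPM (0 to 0.267). Rrm1, the subunit known to be more stable, had the smallest difference from WT-MPP of this step, 1.46, with medians of 4.6001 (0 to 279), 61.1 (0 to 578), 0.680 (0 to 635) and 0.166 TPM (0 to 347). The share with both was 38.3% (24.5 to 53.6%) in SK cells, 30.4% (18.8 to 44.1%) in FL HSC, 8.33% (1.75 to 22.5%) in BM HSC and 0 of 41 WT-MPP, which allows up to 7.32%. Rrm1 without Rrm2 was seen in 38.9% of BM HSC and 26.8% of WT-MPP. The difference in Rrm1 between SK cells and FL HSC, -1.50, became 0.07 within the common range of detected genes.

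Tk1, the thymidine kinase of the salvage route, was listed at 0 in every WT-MPP cell. It was detected in 51.1% of SK cells, 37.5% of FL HSC and 13.9% of BM HSC, with highest values of 887, 958 and 461 TPM. The share with at least 1 of Cdc6, Tk1 and Rrm2, a combination chosen after their values were seen, was 78.7% (64.3 to 89.3%) in SK cells, 57.1% (43.2 to 70.3%) in FL HSC, 25% (12.1 to 42.2%) in BM HSC and 0 in WT-MPP, a 0 that the choice fixed. Dut, which removes dUTP, had the largest difference of this step from WT-MPP, 3.62, and was common in BM HSC too. It was found in 91.5%, 92.9%, 80.6% and 48.8% of the 4 populations, with medians of 165 (0 to 723), 116 (0 to 420.4), 68.4 (0 to 471) and 0.982 TPM (0 to 351). Tyms, which makes thymidylate, differed from WT-MPP by 2.27 and shares its name with a pseudogene, Tyms-ps, so its reads are uncertain.

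**Figure D4:**
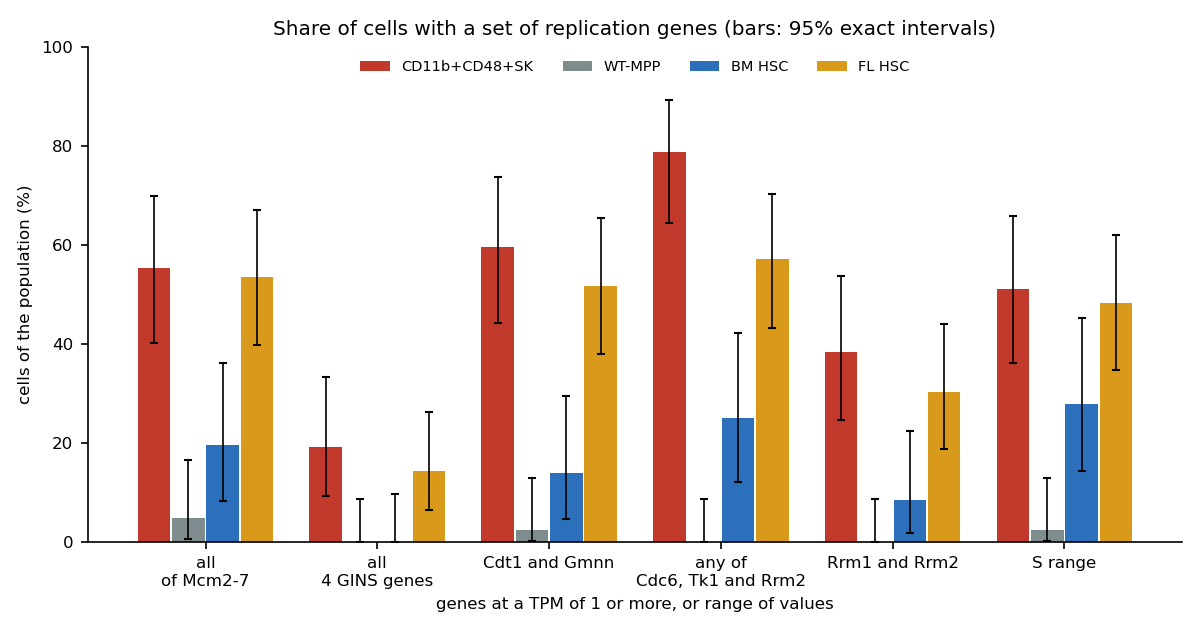
Share of cells (%, bars) of the 4 populations with all genes of a set, or any of Cdc6, Tk1 and Rrm2, at a TPM of 1 or more, and share in the S range, with 95% exact Clopper-Pearson intervals (lines). SK cells and FL HSC stand above both adult populations in each group of bars. WT-MPP is at 0 for the GINS genes and for Rrm1 with Rrm2, and its 0 for any of Cdc6, Tk1 and Rrm2 was fixed by the choice of these genes after their values were seen.

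By size, the 5 genes of largest difference from WT-MPP were Fen1, Cdt1, Mcm7, Gmnn and Dut, and the 5 of smallest were Pole, Orc3, Orc4, Orc1 and Rpa2. From BM HSC the largest were Fen1, Gins1, Rpa3, Cdt1 and Gins2, and the smallest, from -1.13 to -0.22, were Pole, Orc2, Orc5, Chaf1b and Gins4. From FL HSC the largest, from 0.99 to 0.58, were Gins1, Rfc1, Fen1, Rfc2 and Rrm2, and the smallest, from -2.94 to -1.37, were Pole, Prim1, Rpa2, Rrm1 and Gmnn. The 5 genes not described singly, Pola2 (polymerase alpha), Pold1 (the catalytic subunit of polymerase delta), Rfc3, Rfc5 and Rpa1, stood 1.53 (Pold1) to 2.39 (Rfc3) above WT-MPP. Over all cells Fen1 and Cdt1 were in the top 5 against both adult populations, and Pole was last in all 3 comparisons. In the common range of detected genes Cdt1 stood 0.45 above BM HSC.

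An SK cell had a median of 32 (8 to 50) of the 52 genes detected, an FL HSC 32.5 (14 to 51), a BM HSC 20.5 (8 to 48) and a WT-MPP cell 14 (8 to 34). At least 40 were detected in 17 SK cells (36.2%, 22.7 to 51.5%), 17 FL HSC (30.4%, 18.8 to 44.1%), 2 BM HSC (5.56%, 0.680 to 18.66%) and 0 of 41 WT-MPP. At least 20 were detected in 39 of 47 SK cells and 6 of 41 WT-MPP. The SK cells were not uniform, and the poorest had as few of these genes as the poorest WT-MPP. Within the common range of detected genes, the medians were 30 in the SK cells, 22.5 in FL HSC, 21 in BM HSC and 17 in WT-MPP.

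**Figure D5:**
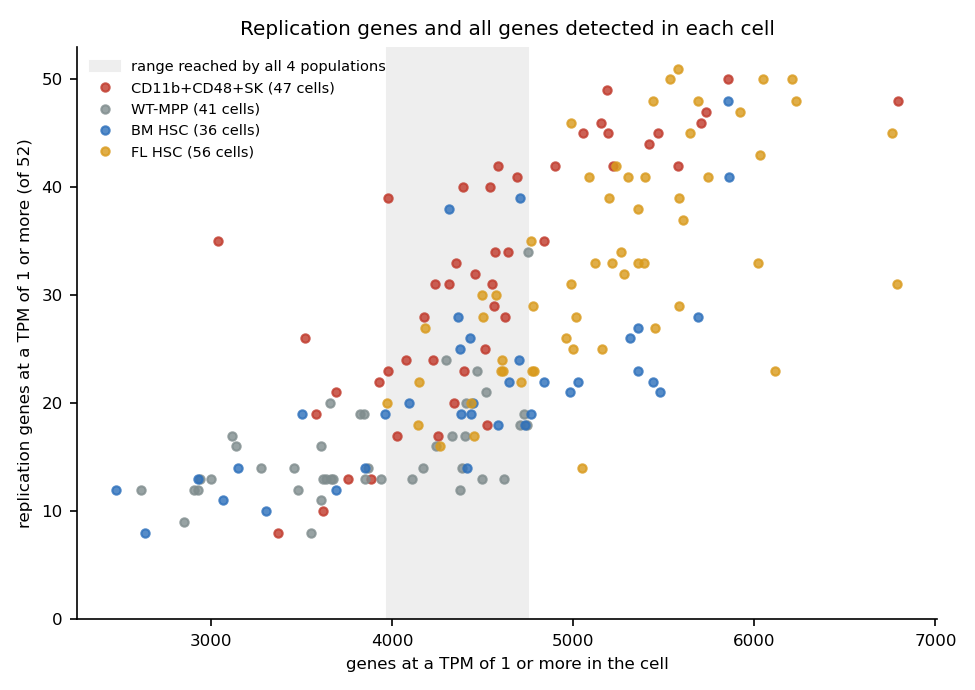
Replication genes detected (of 52) against all genes detected in each of the 180 cells, coloured by population, with the range of detected genes that all 4 populations reach marked. In that range the SK cells have a median of 30 replication genes and WT-MPP 17.

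Over the cells of a population, replication genes detected went with all genes detected, with r of 0.78 in the SK cells, 0.67 in FL HSC, 0.70 in BM HSC and 0.53 in WT-MPP. Single genes went with the rest of the machinery to different degrees. In the SK cells, r with the mean of the other 51 was 0.89 for Lig1, 0.87 for Mcm5, 0.86 for Tyms and 0.84 for Gmnn, and 0.05 and 0.04 for the origin genes Orc3 and Orc4. In WT-MPP it was 0.31 for Lig1, 0.21 for Mcm5 and 0.08 for Tyms.

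Replication genes outside the 52 were taken from a list of 50, of which 49 were kept (Recql4 was not). Of these, 27 were higher by 1 or more in the SK cells than in WT-MPP and none was lower, 20 were higher and 1 lower than in BM HSC, and 2 were higher and 5 lower than in FL HSC. The shares of all kept genes were 19% and 5.01%, 13.4% and 11.8%, and 4.02% and 20.9%, so the count higher than in FL HSC was at the background. The largest differences from WT-MPP were those of Tipin, a fork protection gene (4.80), 2810417H13Rik, the older symbol of Pclaf, which encodes a Pcna-binding factor (3.42), Cdca7 (3.30), Rnaseh2b, a subunit of ribonuclease H2 (3.24), and the chromatin remodeller Hells (2.89). 2810417H13Rik was detected in 65.96% of the SK cells and 0 of 41 WT-MPP. The smallest were Atrip (-0.24), Rrm2b (-0.04), Atr (0.05), Rbbp7 (0.09) and Mcm9 (0.11). Atr and Atrip, whose products sense stalled forks, thus differed little from WT-MPP, but most cells lacked them. Atr was detected in 19.1% of SK cells and 14.6% of WT-MPP, and Atrip in 29.8% and 31.7%.

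A range of S values was set from 23 S phase genes outside the 52 and from 54 G2M genes. Each cell got the mean log2(TPM + 1) of either list, centred on the mean of the 4 population means, and lay in the S range if its S value was above 0 and above its G2M value. The share in the S range was 51.1% (36.1 to 65.9%) in SK cells, 48.2% (34.7 to 61.97%) in FL HSC, 27.8% (14.2 to 45.2%) in BM HSC and 2.44% (0.0617 to 12.9%) in WT-MPP. Cells within 0.25 of its border numbered 4, 11, 4 and 1. The intervals of SK cells and BM HSC overlap, and that of WT-MPP lies below those of the other 3, which again covers the counting of cells only and is no test. With at least 12 of the 23 genes detected in place of the score, the share was 48.9% of SK cells, 35.7% of FL HSC, 8.33% of BM HSC and 0 of 41 WT-MPP. For the common range of detected genes the score was centred anew on the cells of that range, and the shares were 50%, 35.7%, 42.9% and 11.8%. The moved centre shifts the border, so these shares are not those of the S range set on all cells. The range of higher G2M values held 10.6% (3.55 to 23.1%) of SK cells and 26.8% (15.8 to 40.3%) of FL HSC. These are ranges of a score and not cell types, and no cycling is read from them alone.

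The mean of the 52 genes went with the S value of a cell more than with its G2M value. The coefficients were 0.95 and 0.62 in the SK cells, 0.94 and 0.58 in FL HSC, 0.91 and 0.83 in BM HSC, and 0.63 and 0.32 in WT-MPP. The lists share no gene with the 52 but share the cells and their number of detected genes.

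Genes outside the 52 whose level over cells was most like the mean of the 52 were sought among 5364 genes detected in at least 20% of the cells of each population. Likeness was the mean of the 4 coefficients within populations, whose median over these genes was 0.11. The 10 highest were Gm6682 (0.61), Tuba1b (0.60), Stmn1 (0.58), Tipin (0.56), Nrm (0.55), Pmf1 (0.54), Ptma (0.53), Hat1 (0.52), Ran (0.50) and Hspa14 (0.50). Tuba1b and Stmn1 encode an alpha-tubulin and a tubulin-binding protein, Hat1 a histone acetyltransferase and Ran a nuclear transport GTPase, and Gm6682 is annotated as a processed pseudogene.

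Genes of other cell types also moved with the populations. Of 8 adult HSC genes, 6 were lower by 1 or more in the SK cells than in WT-MPP and all 8 than in BM HSC and FL HSC, beside 5.01%, 11.8% and 20.9% of all kept genes. Their summed log2(TPM + 1) had a median of 5.82 (0 to 21.1) in the SK cells, 38.5 (25.02 to 52.2) in FL HSC, 41.3 (11.7 to 56.8) in BM HSC and 28.9 (8.27 to 47.4) in WT-MPP, and Fgd5 was listed at 0 in every SK cell. The 10 myeloid genes summed to 28.3 (11.7 to 51.05), 19.99 (13.1 to 29.3), 18.5 (10.5 to 25.8) and 18.67 (6.39 to 29.2). Of the 6 that were kept, Mpo and Ctsg were higher by 1 or more in the SK cells than in WT-MPP, Mpo being in 91.5% and 9.76% of the cells. Prtn3 was lower by 1 or more, with mean log2(TPM + 1) of 6.67 and 7.92, and Elane, Csf1r and Cebpe were listed at 0 in every SK cell.

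Mast and basophil genes, 4 of 6 being in the table, summed to a median of 8.12 (0 to 20.7) in the SK cells and 0 in the other 3. Of SK cells, 87.2% had Cpa3, 36.2% Mcpt8, 10.6% Ms4a2 and 2.13% Gzmb. Gzmb went the other way, with 9.76% of WT-MPP and 16.7% of BM HSC. Erythroid genes, 7 of 10, summed to 0.673 (0 to 18.4), 23.4 (11.3 to 38.8), 3.95 (0 to 21.7) and 0.582 (0 to 14.1). Hbb-b2 was in every FL HSC, Hbb-b1 in 98.2%, Epor in 41.1% and Hba-a2 in 16.1%. Gata1, Klf1 and Hba-a1 were in 7.14%, 3.57% and 1.79% of FL HSC, and Klf1 was in 6.38% of SK cells. B lymphoid genes, 6 of 9, had medians of 6.83, 7.91, 7.60 and 1.89, T lymphoid genes, 4 of 7, had 0.370, 0, 0 and 0, and the 5 megakaryocyte genes had 1.02, 10.3, 10.8 and 1.77. The part of these lists in the differences of the replication genes was not tested.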

How the data were processed

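Single cells were sorted by FACS and their cDNA was amplified with the Discover-sc WTA Kit V2. Per the labels and the methods of the study, the authors demultiplexed the reads with bcl2fastq, aligned them to mm10 with HISAT2 (2.1.0), used SAMtools (0.1.19), and deposited TPM values from StringTie (1.3.4), 1 column per cell. The annotation and the strand setting are not given in the sources used here. Of 181 cell columns, 1 matched no sample and was not used, which left 180 cells. TPM in a cell sums to a fixed total, so a gene can stand lower because others are higher, and it keeps no read counts.

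From the deposited values, a mean of log2(TPM + 1) was taken per population. The filter kept genes that reached a TPM of 1 in no fewer than 10% of the cells of some population. No test was made, because no animal is named. Shares have 95% exact Clopper-Pearson intervals. For a share of 0 the limit in the text is 3 cells of the population, which lies below the upper end of the exact interval. The count of differences and the scaling of cells were tested on simulated data, and the interval on a known case. The S range, the common range, the coefficients and the motif search were not tested in this way. Named with values were the genes of the helicase, GINS, origin and licensing groups, the highest and lowest gene of every other complex by difference between SK cells and WT-MPP, the 5 highest and 5 lowest in each comparison of SK cells, 5 and 5 other replication genes and the 10 most alike genes. Other genes were named after their values were seen. The 52 genes, all lists and all rules were chosen with earlier results of these data known. Other pseudocounts, filters, scalings, detection thresholds and a common range of detected genes were tried. Motifs were searched in RefSeq windows, exon overlaps were read from GENCODE vM21, and Python (3.11.15), numpy (2.4.6), pandas (2.3.3), scipy (1.17.1) and matplotlib (3.10.9) were used.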

Additional observations from a re-analysis of the deposited data

How the results depend on the processing

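No paired analysis was possible because the labels name no animal, and each population was treated as 1 sample, with no test. The count of 41 genes higher in SK cells than in WT-MPP stayed within 1.5 times under all 7 alternatives, and was 36 under median ratio scaling, which moved the median difference of all kept genes from 0.21 to -0.06. With the pseudocount at 0.1, 4 genes were higher in SK cells than in FL HSC, 33 higher and 1 lower in BM HSC than in WT-MPP. With it at 10, 17 were higher in SK cells than in BM HSC, 2 lower than in FL HSC, 24 higher in FL HSC than in BM HSC and 7 higher in BM HSC than in WT-MPP. On the log2 of the mean TPM plus 1, the first 3 of these counts were 16, 2 and 19, 2 genes were higher in SK cells than in FL HSC, and 2 were lower in BM HSC than in WT-MPP. Median ratio scaling gave 2 genes higher and 8 lower in SK cells than in FL HSC, and 2 lower in BM HSC than in WT-MPP. In the common range of detected genes, 14 were higher in SK cells than in BM HSC (beside 14.2% of kept genes). There 3 were lower (19.2%) and 17 higher (11%) in SK cells than in FL HSC. FL HSC were higher than WT-MPP in 19 (18.5%), and were higher than BM HSC in 11 (19.5%) and lower in 14 (15.7%). BM HSC were higher than WT-MPP in 21 (13.2%) and lower in 4 (15.1%). Outside the common range, these alternative counts are given without the share of all kept genes, and are not read as above or below it.

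Of the 13 complex medians, those higher by 1 or more in SK cells than in WT-MPP went from 12 to 7 at a pseudocount of 10. Against BM HSC they went from 9 to 4 at a pseudocount of 10, 3 on the log2 of the mean and 3 in the common range. Against FL HSC, none passed 1 in either direction, but 1 was lower at a pseudocount of 0.1, 2 with the filter at 50% of cells and 1 in the common range, where 5 were higher. FL HSC over WT-MPP went from 12 to 5 in the common range, and FL HSC over BM HSC from 10 to 6, 4 and 4, with 2 lower in the common range. BM HSC over WT-MPP went from 5 to 8 at a pseudocount of 0.1 and 0 at 10.

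With at least 12 of the 23 S genes detected in place of the score, the share was 8.33% of BM HSC and 0% of WT-MPP. All of Mcm2-7 above a TPM of 0 were in 70.2% of SK cells and 73.2% of FL HSC, at least 5 of the 6 in 72.3% and 67.9%, and all 6 in 14.3% of FL HSC in the common range. Differences of 1 or more in SK cells that turned in the common range were those of Pold2 (-0.013) from WT-MPP, Dut (-0.45), Rfc5 (-0.22) and Tyms (-0.21) from BM HSC, and Dbf4 (0.53), Rpa2 (0.62) and Rrm1 (0.075) from FL HSC, beside 11 genes in FL HSC against WT-MPP and 12 against BM HSC. Smaller ones turned too, to -0.71 for Rfc2 from WT-MPP and -0.40 for the median of the origin recognition complex. On the log2 of the mean TPM plus 1, Pold3 turned to -0.065 from WT-MPP. The cause of these changes was not tested. Of all values, 142 main ones and 479 of single genes or complex medians moved little, and 42 and 97 moved. Another 4 of the second kind changed sign from a difference of 1 or more. The common range holds 14 to 24 cells per population.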
